A study of Mus musculus with 3 samples.

Results

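Cd38 and 9 other genes of NAD, ATP and adenosine metabolism were described. They were taken by symbol from a list of cell surface enzymes of these nucleotides and of enzymes that rebuild NAD from its breakdown products, and all 10 of 10 were present among the 24467 gene symbols of the count tables. The libraries came from 5TGM1.BRE, a mouse myeloma line that resists bortezomib, an inhibitor of the proteasome. The parental 5TGM1 line goes back to a myeloma that arose in C57Bl/KaLwRij mice. Its resistant derivative had been taken back out of the marrow of such mice and was cultured in 10 nM bortezomib. This growth condition is given alike for all samples, but the cell type label mentions bortezomib for replicates 2 and 3 and not for replicate 1. Drug was absent for 72 h or longer before polyadenylated RNA was taken from 10000000 cells per sample. All 3 samples belonged to this 1 group, so levels in these cells are given, with no contrast to sensitive cells. Whether the samples were separate cultures is not stated. Each SD therefore describes the spread of these samples, part of which may be technical, and each p-value covers these samples only.

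NAD is a redox carrier that enzymes also cut apart for signalling. CD38 and its relative BST1 (CD157) do so at the cell surface and release nicotinamide, and NAMPT, NAPRT and the NMNAT enzymes rebuild NAD inside the cell. Outside the cell, ENTPD1 (CD39) trims ATP to AMP, ENPP1 hydrolyses ATP and other nucleotides, NT5E (CD73) turns AMP into adenosine, ADA inactivates adenosine, and ADORA2A senses it. CD38 is abundant on human myeloma cells and is the target of therapeutic antibodies, and the route from NAD through CD38, ENPP1 and CD73 to adenosine is studied in the myeloma niche.

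The libraries held 62303493, 45705994 and 59402218 counts for replicates 1, 2 and 3. Levels are given as CPM, counts per 1000000 counts of the library. Where a gene had no count, the limit was taken as 3 counts, which is 0.0179 CPM over the 167411705 counts of all libraries. Limits and counting intervals leave out error other than counting, and reads copied by PCR count more than once. A gene at 1 CPM or more in every library is called detected. Replicate 3 stood apart from the others. Over the 10016 detected genes, the SD of the log2 difference between libraries was 0.11 for replicates 1 and 2, against 0.26 and 0.23 for replicate 3 set against each of them. The difference of replicate 3 from the others followed gene length, with a Spearman correlation across these genes of -0.64. Of 8 plasma cell markers, 7 were detected, and the summed level of all 8 was 4454 to 4569 CPM. The other, Tnfrsf17, which encodes BCMA, was at 0.658, 0.416 and 0.673 CPM in replicates 1, 2 and 3. None of 12 T and NK cell markers and none of 10 myeloid markers was detected, at summed levels of 0.394 to 0.610 CPM and 0.350 to 0.640 CPM, and Cd3e, Nkg7, S100a8 and S100a9 had no count. Detected were 2 of 8 B cell markers, Fcer2a at 4.08 and Ms4a1 at 2.21 CPM on average, 1 of 10 stromal and endothelial markers, Pecam1 at 5.31 CPM, and 1 of 8 erythroid and megakaryocyte markers, Itga2b at 16.2 CPM. The summed levels of these lists were 4.35 to 9.60, 6.16 to 6.94 and 15.2 to 17.6 CPM, and their part in the results was not tested. The B cell markers Bcl6 and Cr2, the stromal marker Col1a2 and the erythroid marker Alas2 had no count.

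The 10 genes ranged from no count to 301 CPM. Detected were 6 of the 10, namely Nampt, Entpd1, Ada, Nmnat1, Naprt and Adora2a, beside 40.9% of all genes. Enpp1 and Bst1 had counts but stayed under 1 CPM, and Cd38 and Nt5e had none, beside 33.5% of all genes with no count. Cd38 and Bst1, for surface enzymes that cut NAD, and Nt5e, for a surface enzyme that makes adenosine from AMP, were thus at or near 0. Entpd1, which makes AMP, and Nampt, which makes the NAD precursor nicotinamide mononucleotide, were among the more abundant transcripts.

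**Figure D1:**
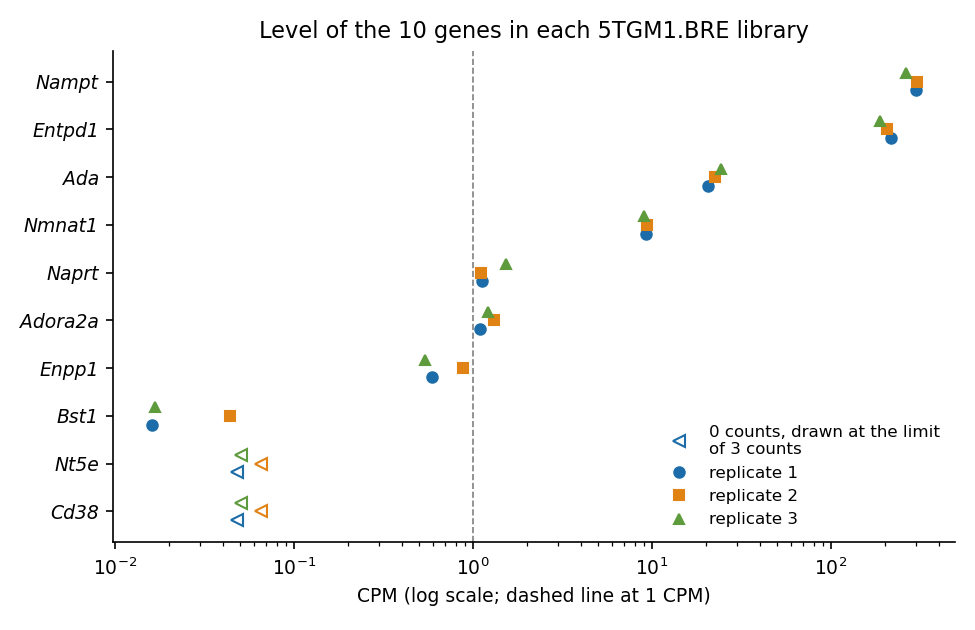
CPM of each of the 10 genes (log axis) in replicates 1, 2 and 3, with the dashed line at 1 CPM and open triangles for libraries with no count, drawn at the limit that 3 counts give. Nampt and Entpd1 lie at 187 to 301 CPM, Naprt and Adora2a just above 1 CPM, and Cd38 and Nt5e have no count in any library.

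Cd38 encodes a surface enzyme that makes cyclic ADP-ribose and ADP-ribose from NAD. It had 0, 0 and 0 counts. Its paralog Bst1, a surface protein held by a lipid anchor with the same type of activity, had 1, 2 and 1 counts, a pooled level of 0.0239 CPM with an exact 95% Poisson interval of 0.00651 to 0.0612 CPM. Its mean over the libraries was 0.0255 CPM, and 0.0164 CPM without replicate 2. No library thus held more than 2 counts of either gene, and at this depth the level of Bst1 overlaps the limit set for Cd38. The exons of Cd38 (chromosome 5, 43868553 to 43912375, plus strand, GRCm38) overlapped no exon of another annotated gene. Those of Bst1 (chromosome 5, 43818885 to 43843986, plus strand) shared 98 bases with Fbxl5 on the opposite strand, so its few counts are uncertain.

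Cd38 and Bst1 lie side by side with 24566 bases between them, and 7 genes of the tables, Bst1 included, lay wholly within 500 kb of Cd38. Of these 7, 2 were detected, beside 40.9% of all genes. Fbxl5, which encodes an iron-regulated ubiquitin ligase subunit, had 2094, 1459 and 1972 counts (32.9 ± 0.880 CPM, SD, n = 3). Tapt1, on the far side, had 1728, 1220 and 1429 counts (26.2 ± 1.90 CPM, SD, n = 3). Between Cd38 and Tapt1, Fgfbp1 had 0, 0 and 1 counts and Prom1, which encodes the surface protein CD133, had 58, 36 and 61 counts (0.915 ± 0.120 CPM, SD, n = 3). The region therefore held transcribed genes on both sides of a stretch, from Bst1 to Fgfbp1, in which each gene had at most 2 counts per library. Levels this low were not confined to that stretch. Beyond Fbxl5, Cc2d2a had 1, 0 and 0 counts and C1qtnf7 had 0, 0 and 0.

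**Figure D2:**
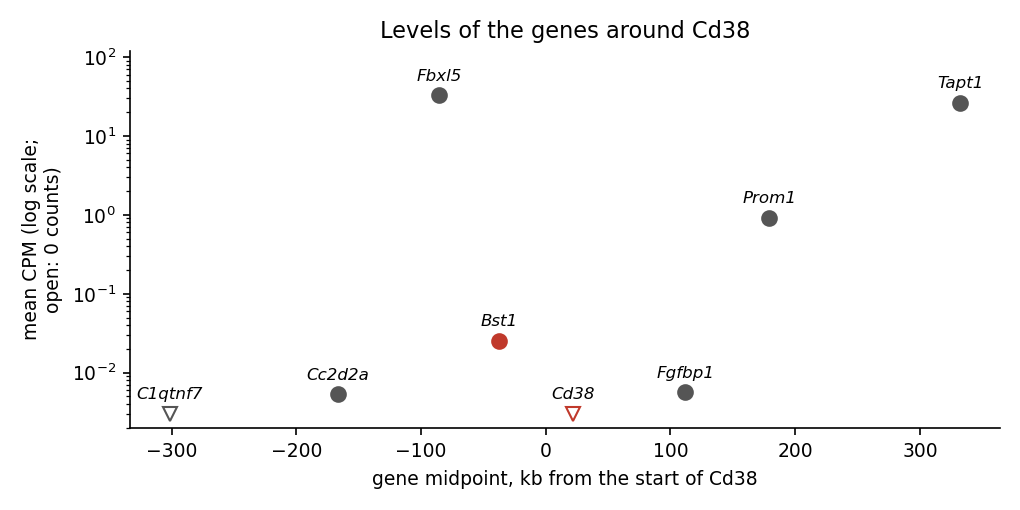
Mean CPM over the 3 libraries (log axis) of the genes within 500 kb of Cd38 against the distance of each gene's midpoint from the start of Cd38 in kb, with open symbols for genes with no count. Fbxl5 and Tapt1, at 32.9 and 26.2 CPM, flank the low levels of Bst1, Cd38 and Fgfbp1. Cc2d2a and C1qtnf7, beyond Fbxl5, were also at or near 0.

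The start regions of the most and least abundant genes are printed to describe a feature that the choice of genes did not use. This is the number of CG dinucleotides, in which the pairs were not separated, since Nt5e lay between Nampt and Entpd1. RefSeq's promoter windows (GRCm38.p6, 250 bases before to 50 after a start) were matched for 7 of the 10 genes. The 250 bases before the RefSeq start follow for the pair highest per kilobase, Nampt and Entpd1, and the pair with no count, Nt5e and Cd38, each 5′ to 3′ on the gene's own strand, which is the plus strand for all, with each CG in capitals. They span chr12:32820085-32820334, chr19:40612116-40612365, chr9:88327359-88327608 and chr5:43868559-43868808 in that order. The RefSeq starts differ from the GENCODE gene starts used for positions elsewhere: for Nampt, Nt5e and Cd38 the printed bases lie after the GENCODE start, within the annotated gene, and for Entpd1 they end at the base before it.
Nampt: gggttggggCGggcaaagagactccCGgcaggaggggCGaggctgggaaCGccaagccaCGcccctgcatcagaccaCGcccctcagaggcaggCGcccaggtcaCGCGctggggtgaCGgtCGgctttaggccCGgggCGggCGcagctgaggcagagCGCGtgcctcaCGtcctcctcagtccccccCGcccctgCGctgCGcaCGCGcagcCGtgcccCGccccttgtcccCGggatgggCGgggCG
Entpd1: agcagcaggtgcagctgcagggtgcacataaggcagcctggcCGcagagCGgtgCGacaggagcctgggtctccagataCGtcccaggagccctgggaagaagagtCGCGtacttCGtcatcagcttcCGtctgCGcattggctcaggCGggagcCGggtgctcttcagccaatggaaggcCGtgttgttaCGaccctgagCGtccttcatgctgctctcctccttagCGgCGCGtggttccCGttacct
Nt5e: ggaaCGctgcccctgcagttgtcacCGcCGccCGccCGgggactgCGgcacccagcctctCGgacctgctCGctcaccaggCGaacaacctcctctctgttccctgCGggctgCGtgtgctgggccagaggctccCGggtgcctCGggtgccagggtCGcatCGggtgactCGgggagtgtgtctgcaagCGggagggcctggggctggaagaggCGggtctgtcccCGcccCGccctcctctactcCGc
Cd38: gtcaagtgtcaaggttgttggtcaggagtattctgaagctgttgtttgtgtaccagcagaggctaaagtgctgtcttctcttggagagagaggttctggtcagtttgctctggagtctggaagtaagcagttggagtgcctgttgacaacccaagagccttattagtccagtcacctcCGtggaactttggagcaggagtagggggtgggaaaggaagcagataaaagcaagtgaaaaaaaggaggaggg

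Within these 250 bases Nampt had 27 CG, Entpd1 18, Nt5e 21 and Cd38 1. In the whole 300-base windows the counts were 36 for Nampt, 28 for Nmnat1, 23 for Entpd1 and for Nt5e, 22 for Enpp1, 20 for Ada and 1 for Cd38, beside a median of 7 over all 32851 windows. Where a gene had several windows, the richest was taken, here and for the printed bases. Another window of Entpd1 had 10 CG. A CG reads the same on both strands. As few CG as in the window of Cd38 were found in 14.1% of windows, and 21.5% had as many as that of Nt5e. Cd38 and Nt5e, both with no count, thus sat at different ends of this scale. Of 1946 genes with no window richer than that of Cd38, 69 (3.55%) were detected and 1557 (80.0%) had no count. Of 5549 genes with a window as rich as that of Nt5e or richer, 4004 (72.2%) were detected and 546 (9.84%), Nt5e among them, had no count. These shares are descriptions of the sequence and say nothing of methylation, which was not measured.

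**Figure D3:**
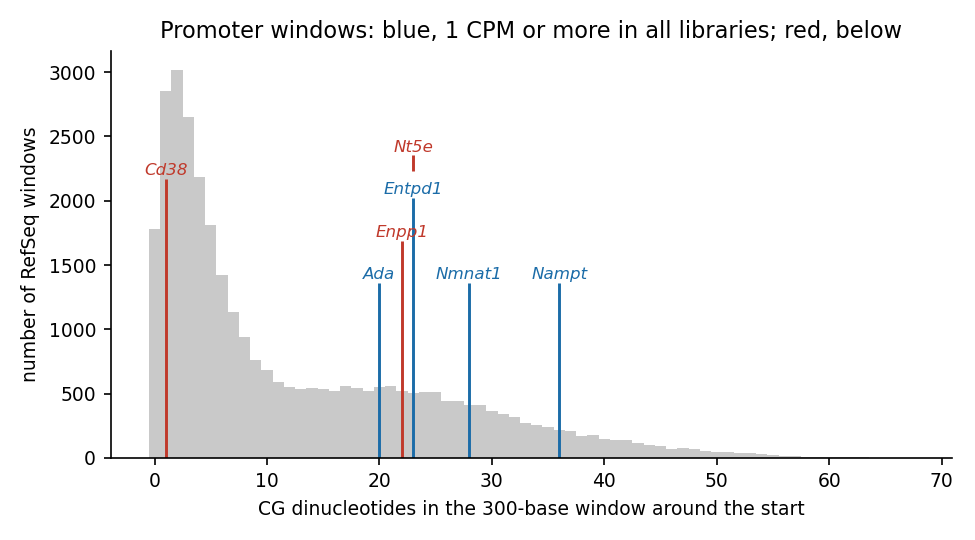
Number of RefSeq 300-base promoter windows (bars) by their count of CG dinucleotides, with lines for the richest window of each of 7 genes, blue for detected genes and red for the others. Cd38 stands at 1 CG, whereas Nt5e shares the count of 23 with Entpd1 and Nampt stands at 36.

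Among the enzymes that act on extracellular ATP and AMP, Entpd1 was high and Nt5e and Enpp1 were not. Entpd1, which removes phosphates from ATP and ADP, was at 217, 205 and 187 CPM in replicates 1, 2 and 3 (203 ± 14.8 CPM, SD, n = 3). Nt5e, the 5′-nucleotidase that takes the last phosphate from AMP, had 0, 0 and 0 counts. Per kilobase of exon, the level of Entpd1 was at least 17486-fold higher than that of Nt5e, taking 3 counts over all libraries as the limit of Nt5e, and at least 11343-fold higher without lengths. Enpp1, a surface pyrophosphatase, was at 0.594, 0.875 and 0.539 CPM (0.669 ± 0.180 CPM, SD, n = 3). It lay below 1 CPM in each library, with 37, 40 and 32 counts, and above the range of Bst1. Entpd1 lies on chromosome 19 at 40612366 to 40741602 (plus strand), Nt5e on chromosome 9 at 88327197 to 88372092 (plus strand) and Enpp1 on chromosome 10 at 24637914 to 24712159 (minus strand).

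In a list of 12 surface or secreted enzymes, from families with members that act on ATP, ADP or AMP, 3 were detected, beside 40.9% of all genes. Nt5e and Entpd8, 2 of the list, had no count. The median of the list was 0.0261 CPM, beside 0.0764 CPM over all genes. Alpl, the tissue-nonspecific alkaline phosphatase, which also can release phosphate from AMP, was the highest of them per kilobase. It was at 425, 398 and 396 CPM (406 ± 15.8 CPM, SD, n = 3), or 101 ± 3.92 CPM per kilobase. Its level per kilobase was at least 48474-fold higher than that of Nt5e on the same limit, and at least 22727-fold higher without lengths. Acp3, listed in the tables under its older symbol Acpp, encodes an acid phosphatase with a membrane form that also acts on AMP, and was at 6.61 ± 0.368 CPM (SD, n = 3). Of the list, Alpl and Acp3 were thus the genes with AMP as a known substrate that were detected.

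Ada, which deaminates adenosine to inosine, was at 20.7, 22.6 and 24.3 CPM (22.5 ± 1.84 CPM, SD, n = 3; chromosome 2, 163726584 to 163750239, minus strand). Per kilobase it came next below Entpd1 and above Nmnat1, with no overlap of the ranges. Adora2a, the receptor through which adenosine raises cyclic AMP in lymphocytes, was at 1.09, 1.31 and 1.21 CPM (1.21 ± 0.111 CPM, SD, n = 3; chromosome 10, 75316877 to 75334784, plus strand). It stood just above the limit in each library, from 68, 60 and 72 counts. The other adenosine receptors were lower, with 0, 0 and 1 counts for Adora1, 1, 0 and 0 for Adora2b and 3, 2 and 0 for Adora3.

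Of 11 adenosine receptor and nucleoside transporter genes, 5 (45.5%) were detected, near the 40.9% of all genes. The median of the list was 0.155 CPM. Slc29a1, which encodes the equilibrative transporter that carries adenosine across the plasma membrane, led them at 172 ± 1.80 CPM (SD, n = 3), or 42.9 ± 0.450 CPM per kilobase. Slc28a2, a sodium-coupled nucleoside transporter, was at 8.50 ± 0.565 CPM, the intracellular transporter Slc29a3 at 8.55 ± 2.11 CPM and Slc29a2 at 2.58 ± 0.447 CPM (SD, n = 3 for each). A transporter for adenosine was thus far above every adenosine receptor in these cells.

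Of 12 genes for adenosine and related conversions, most of which act inside the cell, 10 were detected, beside 40.9% of all genes. The median of the list was 56.6 CPM. Aprt, which salvages adenine, was at 142 ± 15.4 CPM per kilobase, Mtap, which releases adenine from methylthioadenosine, at 47.1 ± 0.675, Ahcy, which splits S-adenosylhomocysteine into adenosine and homocysteine, at 26.1 ± 0.693 and its relative Ahcyl1 at 24.3 ± 2.39 CPM per kilobase (SD, n = 3 for each). Ampd3, an AMP deaminase gene, had no count, and Dpp4 (CD26), the surface protein that anchors ADA in humans, had 2, 0 and 1 counts. Adk, which phosphorylates adenosine to AMP, was at 127, 127 and 127 CPM, 14.9 ± 0.0369 CPM per kilobase (SD, n = 3). Ada was lower than Adk per kilobase in 3 of 3 libraries, by 1.33-fold (log2 ratio -0.41 ± 0.12, SD, n = 3). The longest transcript as the length gave 2.25-fold, and no length 5.65-fold.

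Nucleotidases inside the cell and its organelles were widely transcribed, with 8 of 11 detected, beside 40.9% of all genes, and a median of 38.4 CPM. Nt5c, a cytosolic nucleotidase, led at 47.8 ± 6.13 CPM per kilobase, followed by Nt5c3b at 16.6 ± 0.415, Entpd5 of the endoplasmic reticulum at 15.1 ± 1.18 and Nt5c3 at 12.6 ± 0.425 CPM per kilobase (SD, n = 3 for each). The cytosolic AMP nucleotidase genes Nt5c1a and Nt5c1b had, like Nt5e, no count.

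A list of 17 genes held P2X and P2Y receptors, not all of which sense ATP, and pannexin channels. Of these 17, 2 were detected, beside 40.9% of all genes, and the median of the list was 0.0168 CPM. P2rx4, an ATP-gated cation channel, was at 48.0, 45.8 and 46.8 CPM (6.68 ± 0.159 CPM per kilobase, SD, n = 3), and P2rx3 at 2.11 ± 0.0768 CPM (SD, n = 3). P2rx1 and P2rx7, the latter a channel for high ATP levels in immune cells, were at 0.743 ± 0.133 and 0.712 ± 0.0941 CPM (SD, n = 3 for each). P2rx6, P2ry13 and Panx2 had no count, and Panx1, which forms an ATP release channel, had 0, 1 and 2 counts.

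**Figure D4:**
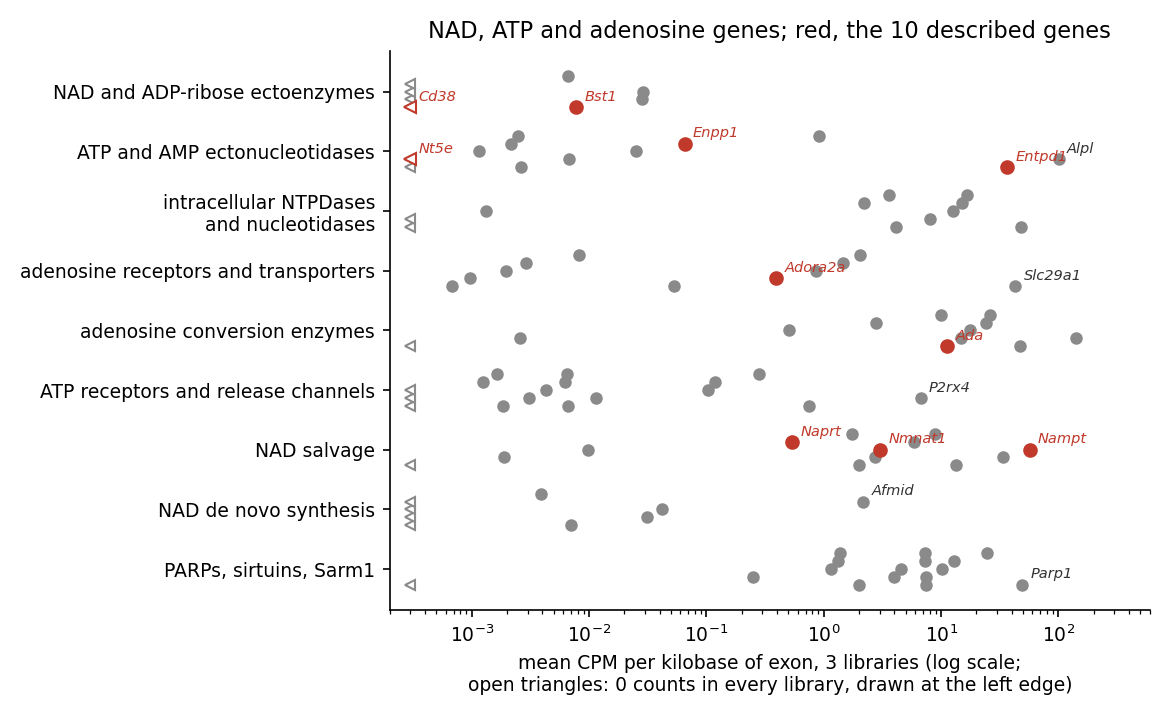
Mean CPM per kilobase of exon over the 3 libraries (log axis) for the genes of 9 lists, 1 row per list, with the 10 described genes in red and genes with no count as open triangles at the left edge. Nampt, Entpd1 and Alpl lie at 36.4 to 101 CPM per kilobase, while no gene of the NAD and ADP-ribose ectoenzymes passes 1.

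The NAD salvage enzymes were led by Nampt. Nampt, the rate-limiting enzyme that joins nicotinamide to a ribose phosphate, was at 298, 301 and 262 CPM (287 ± 21.4 CPM, SD, n = 3; chromosome 12, 32819545 to 32853349, plus strand). It was the highest of the 10 genes in each library, and lower in replicate 3 than in the others. Naprt, which does the same for nicotinic acid, was at 1.12, 1.12 and 1.53 CPM (1.26 ± 0.238 CPM, SD, n = 3), just above the limit in every library. It lies on chromosome 15 at 75890956 to 75894481 (minus strand), and 277 bases, or 11.8% of its exons, are shared with Eef1d, a translation factor gene on the same strand with 390 ± 35.0 CPM (SD, n = 3). Eef1d had 309 counts for each count of Naprt, so the low level of Naprt is uncertain. Nmnat1, which completes NAD in the nucleus, was at 9.23, 9.36 and 8.99 CPM (9.19 ± 0.190 CPM, SD, n = 3; chromosome 4, 149467572 to 149485202, minus strand), the smallest spread relative to its mean, 2.06%, of the 8 genes with a count.

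Within each library, Nampt exceeded Naprt 106.9-fold per kilobase (log2 6.74 ± 0.37, SD, n = 3) and 230.5-fold without lengths. Nampt exceeded Nmrk1, the kinase that takes in nicotinamide riboside, 28.5-fold (log2 4.83 ± 0.13, SD, n = 3), and 16.7-fold with the longest transcript. Nicotinamide was thus the entry point with the most transcript of these 3. Nmnat1 was 18.7-fold below Nampt (log2 -4.23 ± 0.08, SD, n = 3), 31.2-fold below without lengths. Nmnat1 exceeded the mitochondrial isoenzyme Nmnat3 per kilobase by 0.80 ± 0.10 on the log2 scale (SD, n = 3), but this became 0.08 if lengths were ignored and -0.21 on the longest transcripts, so its direction depends on the length. Parp1, a nuclear enzyme that consumes NAD at DNA breaks, stood 1.17-fold below Nampt (log2 -0.22 ± 0.05, SD, n = 3), and at a log2 ratio of 0.07 with the longest transcript. Enpp1 was 570.0-fold below Entpd1 (log2 -9.15 ± 0.35, SD, n = 3), or 310.1-fold if lengths were ignored. All 7 ratios computed kept 1 direction in 3 of 3 libraries, and an exact sign-flip permutation test (two-sided) returned p = 0.25 for each, 0.25 after Benjamini-Hochberg adjustment, the smallest value that 3 libraries allow. The other 5 ratios fixed, each with Cd38, Nt5e or Adora2b, had under 30 counts for a gene and were not computed.

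Of 13 genes listed for NAD salvage and related steps, 10 were detected, beside 40.9% of all genes. The median of the list was 9.10 CPM. Among the 13, Nadk, Nadk2, Nnt, Slc25a51 and Nnmt are not salvage enzymes. After Nampt, the highest were Nadk, the cytosolic NAD kinase, at 33.7 ± 1.69 CPM per kilobase, Slc25a51, the mitochondrial NAD carrier, at 13.5 ± 0.799 and Nnt, the mitochondrial transhydrogenase, at 8.85 ± 0.395 CPM per kilobase (SD, n = 3 for each). Nnmt, which diverts nicotinamide by methylation, had no count. The route that makes NAD from tryptophan was by contrast scarcely transcribed. Of 9 genes listed for it, 1 was detected, Afmid, the formamidase, at 7.67 ± 0.194 CPM (SD, n = 3). Tdo2, Ido2 and Kynu had no count. Acmsd, also among the 9 and without a count, is not a step towards NAD. The share detected over all genes was 40.9%, and the median of this list was 0.0183 CPM. Qprt, which ends this route, had 3, 10 and 4 counts.

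Of 16 intracellular enzymes that consume NAD, 15 were detected, beside 40.9% of all genes, and the median of the list was 23.8 CPM. Parp1 was at 48.8 ± 5.11 CPM per kilobase, the tankyrase Tnks2 at 24.5 ± 2.51, and the deacetylases Sirt2 and Sirt1 at 12.8 ± 0.181 and 10.1 ± 0.736 CPM per kilobase (SD, n = 3 for each). Sirt5, a mitochondrial member, had no count. At the surface, none of 8 genes for NAD and ADP-ribose enzymes was detected, beside 40.9% of all genes, and their median was 0.00829 CPM. Besides Cd38, the ADP-ribosyltransferase genes Art1 and Art2b and the pseudogene Art2a-ps had no count. Art3, the highest of the list, had 6, 5 and 8 counts.

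In order of CPM per kilobase, Nampt (56.8 ± 4.23) was followed by Entpd1 (36.4 ± 2.66), Ada (11.3 ± 0.921), Nmnat1 (3.03 ± 0.0625), Naprt (0.536 ± 0.102), Adora2a (0.394 ± 0.0362), Enpp1 (0.0652 ± 0.0176) and Bst1 (0.00770 ± 0.00476; SD, n = 3 for each), with Cd38 and Nt5e at 0. The ranges of neighbours over the 3 libraries did not overlap for any pair from Nampt to Bst1. The narrowest step was the 1.36-fold one from Naprt to Adora2a, whose ranges overlap in CPM without lengths, and the 1.56-fold step from Nampt to Entpd1 came next. Cd38 and Nt5e cannot be ordered, and Bst1 lies within the limit that a count of 0 allows in a single library.

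Of the 10 genes, 7 passed the filter on low counts and could be tested for variation between the libraries, while Cd38, Nt5e and Bst1 did not. By a chi-square test of homogeneity over all 11308 genes that passed, with Benjamini-Hochberg adjustment, 3 of the 7 varied beyond counting noise, beside 62.9% of all genes tested. These were Nampt (adjusted p = 1.65e-27), Entpd1 (adjusted p = 3.82e-20) and Ada (adjusted p = 1.72e-05), the genes of the set with the most counts. With TMM scaling, which corrects for library composition, Nampt was lower by 0.16 and Entpd1 by 0.14 in replicate 3 than in the mean of replicates 1 and 2, on the log2 scale, and Ada was higher by 0.20. The quartiles over all detected genes were -0.17 and 0.16 on this scale. Enpp1, Naprt, Adora2a and Nmnat1 gave adjusted p = 0.134, 0.0809, 0.618 and 0.957.

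These calls rest in part on replicate 3. Without it, 1 of the 7 varied, Entpd1 (adjusted p = 0.00303), beside 8.6% of all genes, and Nampt and Ada gave adjusted p = 0.634 and 0.168. With the trend on gene length removed from each library, Nampt (adjusted p = 1.58e-13) and Entpd1 (adjusted p = 1.53e-06) kept their calls beside 51.0% of all genes, and Ada (adjusted p = 0.199) did not. The test takes counts as independent molecules. Among 53 other detected genes of the lists, those nearest to Nampt in their pattern over the 3 libraries were Sirt1, Slc25a51 and Ampd2, at log2 distances of 0.01, 0.04 and 0.04, each lowest in replicate 3. This likeness covers 3 libraries of 1 group and is a description.

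**Figure D5:**
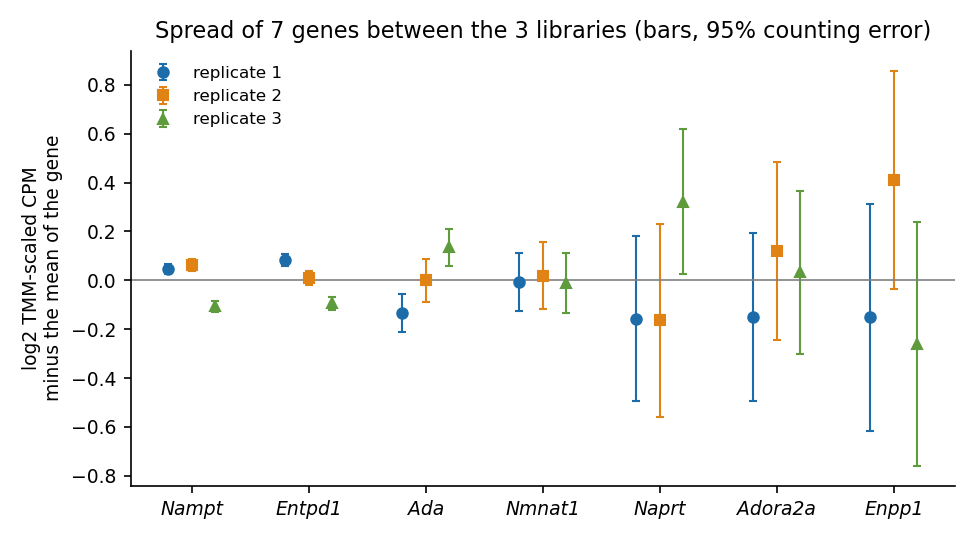
Deviation of each library from the gene's mean, in log2 TMM-scaled CPM, for the 7 genes that passed the filter on low counts, with bars for the 95% counting error. Replicate 3 lies below the other libraries for Nampt and Entpd1 and above them for Ada, where its bar overlaps that of replicate 2. The bars of Nmnat1, Naprt, Adora2a and Enpp1 overlap.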

How the data were processed

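Polyadenylated RNA of 3 samples was sequenced, and 1 deposited table per sample gives whole-number counts for each symbol, not normalized. The submitters' processing notes name bcl2fastq, cutadapt 4.2, STAR and the genome mm10. How reads were assigned to genes, with which annotation and strand setting, is not given in the sources used here, and overlapping genes are uncertain for that reason. CPM used library totals, and lengths (union of exons) and positions came from GENCODE M21 (GRCm38), where 24153 of 24467 symbols had a length. The genes, lists and ratios were chosen with earlier results of these data known. Named genes were the 10 genes, those of the ratios, up to 4 highest per kilobase and up to 3 without counts of each list, and those within 500 kb of Cd38, and a few others were chosen after their values were seen. With 1 group there was no contrast to fit, so a chi-square test per gene asked whether counts differed between libraries beyond counting noise (TMM scaling and filterByExpr, edgeR 4.0.16, R 4.3.3, adjusted p threshold 0.05). It was tested on simulated counts. Ratios used exact sign-flip permutation tests. Alternatives were RLE size factors (DESeq2 1.42.0), other detection limits, other lengths, no filter, a loess length trend (span 0.3) and leaving out each replicate. Python 3.11.15, pandas 2.3.3 and SciPy 1.17.1 were used for the rest.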

Additional observations from a re-analysis of the deposited data

How the results depend on the processing

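Over 26 results and 152 alternatives, 146 values kept their direction and stayed within their limits. The number of the 10 genes detected stayed at 6 without each replicate, and was 7 with a detection limit of 0.5 CPM and 4 with 5 CPM. The share of all genes that pass 0.5 or 5 CPM is not given here. The number of the 10 genes that varied beyond counting noise ranged from 1 to 3 when a replicate was left out. The value of 1 came without replicate 3. With a detection limit of 5 CPM, 3 of 11 adenosine receptor and transporter genes and 1 of 17 P2 receptor and pannexin genes passed. With 0.5 CPM, 4 of the latter did. With the longest transcript as the length, the log2 ratio of Nmnat1 to Nmnat3 became -0.21 and that of Parp1 to Nampt became 0.071, because of the lengths alone. No paired analysis was possible because there was 1 group. Depth limits Cd38 and Nt5e, whose counts of 0 allow levels of up to 0.0179 CPM over all libraries, and Bst1, whose level rests on 1 or 2 counts per library.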

Other observations

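Other listed genes also differed between the libraries or had no count. Tnks, a tankyrase that consumes NAD, was at 25.7, 24.2 and 9.61 CPM in replicates 1, 2 and 3 (adjusted p = 9.99e-97 by the chi-square test), while its paralog Tnks2 was at 273, 266 and 225 CPM. That test called 62.9% of all genes tested. The difference of replicate 3 followed gene length over all detected genes (Spearman correlation -0.64). A value for Tnks with the length trend removed is not given here. Fcer2a, which encodes the B cell surface protein CD23, had 404, 74 and 246 counts. Sirt5 had no count in any library, although the other 6 sirtuin genes were between 6.94 and 64.5 CPM on average. These genes were chosen after their values were seen.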
